A study of Sus scrofa with 18 samples.

Results

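The miR-130 and miR-301 family was followed in backfat, the fat under the skin of the back, from 18 pigs of the Italian Large White breed. They fall into a class of high backfat deposition and a class of low, with 9 pigs in each. Members were taken by name from the deposited table of sequence variants, under the mature names miR-130a, miR-130b, miR-301, miR-301a, miR-301b and miR-454, with or without an arm. Of these 6 names, 2 had entries, miR-130a (ssc-miR-130a in the table) and miR-130b, among 240 mature microRNAs (miRNAs) listed. They held 107 of the 20801 entries of the table, 81 under miR-130a and 26 under miR-130b, where an entry is a read sequence listed under a mature miRNA and its hairpin precursor.

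The high class held 5 castrated males and 4 females, and the low class held 4 castrated males and 5 females. Pigs of both classes were slaughtered at 150 to 160 kg after sharing housing and diet, at 235 to 250 days of age in the high class and 233 to 249 days in the low class. Each small RNA library carried its own animal number. A library held between 9601510 and 34588252 counts when each distinct sequence was counted once. The family therefore rested on 3108 to 19381 reads of miR-130a and 1210 to 4785 reads of miR-130b per library, and the table lists a sequence with fewer than 10 reads in a library at 0.

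The library codes fall into 4 runs (U966-U969, U074-U077, U134-U139 and AC485-AC488), and what a run stands for is not given in the sources used here. Summed levels of the miRNAs named for adipose tissue (miR-143, miR-148a and miR-103) were 199743 to 294901 counts per 1000000 (CPM) in high and 219243 to 282122 in low backfat. Those of skeletal muscle (miR-1, miR-133a, miR-133b, miR-206, miR-208b and miR-499) were 41.9 to 142 CPM in high and 73.3 to 217 in low backfat. Of the 8 arms listed under these muscle names, only 4 had enough counts to be tested. Blood cell miRNAs were present in every library, with 3549 to 6332 CPM in high and 2555 to 9308 in low backfat for the red cell list (miR-451, miR-144 and miR-486), and 1112 to 3233 in high and 1228 to 3055 in low backfat for the white cell list, whose miR-223 had no entry. The endothelial miR-126 summed to 15578 to 37817 CPM in high and 20614 to 41361 in low backfat. Neural, liver and epithelial lists stayed under 200 CPM in every library, with no entry for miR-124, miR-200b or miR-141. Backfat holds several cell types, and in bulk tissue a change in the number of cells of a type cannot be told apart from a change in RNA per cell.

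A miRNA pairs with messenger RNAs mainly through its seed, the bases from the second to the eighth, and lowers their translation and stability. The miR-130 and miR-301 family shares a seed, and in human and mouse cells its members repress PPARG, the nuclear receptor that drives fat cell differentiation and lipid storage. In human fat cell precursors, raised miR-130 reduces differentiation. In mammals the genes of miR-130a and miR-130b lie at separate genomic places.

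The annotated mature sequences are shown because they define the family and the difference between its members. They are written 5′ to 3′ as DNA letters, as in the deposited table, with the seed in capitals.
miR-130a: cAGTGCAAtgttaaaagggcat
miR-130b: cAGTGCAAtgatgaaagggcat
The members share 20 of 22 bases, including the whole seed. The substitutions that lead from miR-130a to miR-130b are T11A and A13G, counted from 1 at the 5′ end. They are set in capitals here, since all assignment of full-length reads to a member rests on them.
miR-130a: cagtgcaatgTtAaaagggcat
miR-130b: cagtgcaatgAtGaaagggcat
Among 225 mature miRNAs with an entry that matched the annotation exactly, these 2 were the ones with this seed. Both mature sequences span positions 80 to 101 of the extended precursors in the table, which does not state whether it counts from 0 or 1. In the RefSeq annotation of Sscrofa11.1, the first protein-coding gene before MIR130A is YPEL4 and the first after it is LOC100514563. MIR130B overlaps the protein-coding gene LOC100155534, with PPIL2 before and SDF2L1 after it. The deposited counts were made on another build, so no genomic positions are given.

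miR-130a had more reads than miR-130b in every library. Its level averaged 455 ± 109 CPM and that of miR-130b 122 ± 20.5 CPM (SD, n = 18). Both annotated sequences have 22 bases, but the annotated form held only 9.59% of miR-130a and 23.2% of miR-130b reads. Whether the members were taken into the libraries equally well was not tested. In log2 CPM the difference was 1.89 ± 0.40 (SD), with miR-130a higher in 18 of 18 libraries (two-sided paired permutation test, p = 2e-05, the smallest these permutations can give, adjusted p = 2.33e-05 over 14 measures). Among the 221 mature miRNAs with enough counts to be tested, miR-130a ranked 71st by mean CPM, just under miR-29c (457 CPM) and miR-30a-3p (456 CPM), and above miR-374a-3p (433 CPM) and miR-145-3p (430 CPM). miR-130b ranked 106th. Together they were a small part of the pool, with 0.0459% and 0.0120% of the counts for miR-130a and miR-130b.

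The spread of each member from pig to pig is given without a test. The coefficient of variation of CPM over the 18 libraries was 23.9% for miR-130a and 16.8% for miR-130b, against a median of 23.7% over 175 miRNAs with a mean of at least 10 CPM. From the steadiest upward, miR-130a was 90th and miR-130b 34th of these. The gap rested mainly on low replicate 9, a castrated male with 764 CPM of miR-130a. Without it, a comparison added after seeing the data, the coefficients were 18.1% for miR-130a and 16.1% for miR-130b (42nd and 28th).

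miR-130a was at a lower level in high backfat, but the difference did not pass the test across all miRNAs. In the 5 castrated males with high backfat it measured 361, 477, 369, 340 and 331 CPM, against 447, 398, 491 and 764 CPM in the 4 castrated males with low backfat. In the 4 females with high backfat it measured 476, 369, 366 and 434 CPM, against 400, 544, 580, 485 and 564 CPM in the 5 females with low backfat. All 9 high libraries lay below the low median of 491 CPM, and 6 of them below the lowest low library, so the classes overlapped in part. High libraries averaged 392 ± 56.2 CPM and low libraries 519 ± 113 CPM (SD, n = 9 each).

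With sex as a covariate, edgeR's quasi-likelihood test gave miR-130a a log2 fold change of -0.40 ± 0.13 (SE, unadjusted p = 0.00543, adjusted p = 0.0705), 17th by p among 221. In the same fit 8 of 221 miRNAs (3.62%) passed an adjusted p of 0.05, and 54 (24.4%) had an unadjusted p under 0.05. The number that passed ran from 0 to 13 when 1 library was left out. It was 0 on leaving out any of 3 high libraries (replicates 1, 3 and 9) or of 3 low libraries (replicates 5, 6 and 9), and 13 without high replicate 6. DESeq2's Wald test on the same counts put miR-130a past the threshold with nearly the same size (log2 fold change -0.39, adjusted p = 0.0407), where 22 of 220 miRNAs (10%) passed. Without the 4 libraries of codes AC485-AC488 the edgeR value was -0.22 (adjusted p = 0.458), with reads that match the annotation exactly it was -0.25 (adjusted p = 0.272), and without low replicate 9, a castrated male of that run with 764 CPM, it was -0.29 (adjusted p = 0.162).

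**Figure D1:**
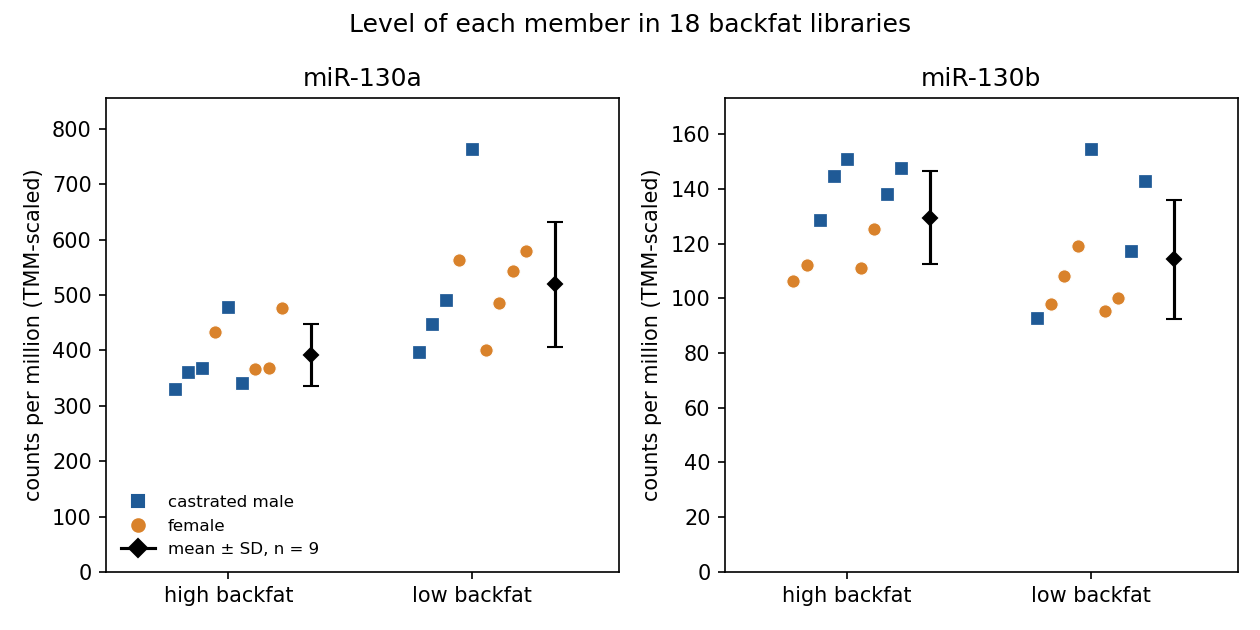
TMM-scaled counts per 1000000 (CPM) of miR-130a (left) and miR-130b (right) in each library, by backfat class, with squares for castrated males, circles for females, and the mean ± SD of 9 libraries as a diamond. miR-130a ran from 331 to 477 CPM in high and from 398 to 764 CPM in low backfat, and the castrated males with high backfat held the upper part of miR-130b's high class.

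miR-130b did not share that direction. In castrated males with high backfat it measured 151, 138.2, 145, 148 and 129 CPM, against 117, 92.6, 143 and 155 CPM in castrated males with low backfat. In females with high backfat it measured 106, 111, 112 and 125 CPM, against 95.5, 100, 108, 97.8 and 119 CPM in females with low backfat. The means were 129 ± 16.9 CPM in high and 114 ± 21.8 CPM in low backfat (SD, n = 9 each), and 8 of 9 high libraries lay above the low median. The log2 fold change of 0.15 ± 0.10 (SE) did not pass (adjusted p = 0.383 in edgeR, 97th of 221 by p).

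**Figure D2:**
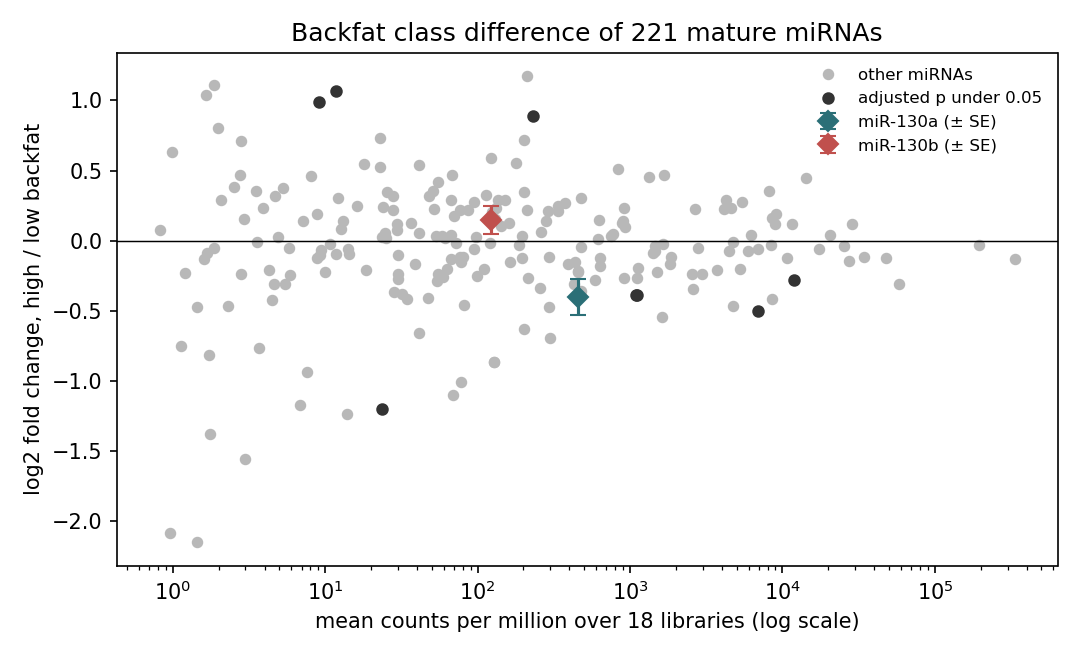
Log2 fold change of high over low backfat from edgeR against mean CPM (log scale) for 221 mature miRNAs, with the 8 that passed in black and the 2 family members as diamonds with their SE. miR-130a stood at -0.40 and miR-130b at 0.15, on opposite sides of no change.

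The classes were also compared within each sex, in a fit of the 4 combinations of sex and class. miR-130a had a log2 fold change of high over low of -0.48 ± 0.18 in castrated males (SE, edgeR adjusted p = 0.147) and of -0.32 ± 0.19 in females (adjusted p = 0.572). miR-130b had 0.16 ± 0.15 in castrated males (adjusted p = 0.515) and 0.13 ± 0.15 in females (adjusted p = 0.716). The values in castrated males depended on which libraries were included. miR-130a had -0.25 without low replicate 9 and -0.11 without codes AC485-AC488, and miR-130b had 0.0395 without low replicate 4, 0.27 without low replicate 9 and 0.48 without those codes, none of which passed. In females miR-130a had -0.0662 with exact matches only and -0.11 with no scaling beyond library totals, and miR-130b had 0.35 with no such scaling and 0.0773 without high replicate 7. The class effect in castrated males minus that in females was -0.16 ± 0.26 for miR-130a (adjusted p = 0.893) and 0.04 ± 0.21 for miR-130b (adjusted p = 0.968), so no difference between the sexes was detected, with intervals that leave room for one. Within castrated males 9 of 221 miRNAs (4.07%) passed, and within females and for the difference between sexes 0 of 221 (0%) passed, with 20 (9.05%) and 25 (11.3%) at an unadjusted p under 0.05. DESeq2 passed 13 of 220 (5.91%) within castrated males, 0 of 220 within females and 3 of 220 (1.36%) for the difference, neither member among them in any of these.

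miR-130b stood higher in castrated males than in females, but the difference did not pass. It averaged 135.3 ± 19.7 CPM in castrated males and 108 ± 9.86 CPM in females (SD, n = 9 each), and 7 of the 9 castrated males lay above the highest female at 125 CPM. The log2 fold change of castrated males over females was 0.30 ± 0.10 with class as a covariate (SE, unadjusted p = 0.00782, 2nd of 221), and it did not pass after adjustment (edgeR adjusted p = 0.434). Here 0 of 221 miRNAs (0%) passed and 17 (7.69%) had an unadjusted p under 0.05, and DESeq2 passed 0 of 220. miR-130a averaged 442 ± 134.2 CPM in castrated males and 469 ± 82 CPM in females (SD, n = 9 each), with a log2 fold change of -0.05 ± 0.13 (SE, edgeR adjusted p = 0.932).

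Since the members were read in the same libraries, the ratio of their reads needs no scaling between libraries. This ratio was taken up after both members' values had been seen, so it is given without a test. In castrated males with high backfat there were 2.40, 3.45, 2.55, 2.30 and 2.57 miR-130a reads per miR-130b read, against 3.81, 4.29, 3.44 and 4.94 in castrated males with low backfat. In females with high backfat there were 4.48, 3.32, 3.27 and 3.46, against 4.19, 5.43, 5.37, 4.96 and 4.73 in females with low backfat. All 9 high libraries lay below the low median of 4.73, 6 of them below the lowest low library, and 5 low libraries above the highest high library.

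The ratio averaged 3.09 ± 0.702 in high and 4.57 ± 0.686 in low backfat (SD, n = 9 each), a difference of -0.58 in its mean log2. Within the runs of library codes the log2 difference, high minus low, was -0.29 in U966-U969 (2 and 2 libraries), -0.51 in U074-U077 (2 and 2), -0.85 in U134-U139 (4 and 2) and -0.75 in AC485-AC488 (1 and 3). Each of the 4 runs thus held a lower mean ratio in high backfat. Sex was not balanced within the last 2 of these runs. In U134-U139 the low libraries were females (5.37 and 4.96), against high females at 3.27 and 3.46 and high castrated males at 2.55 and 2.30. In AC485-AC488 the high library was a castrated male (2.57), against low castrated males at 3.44 and 4.94 and a low female at 4.73. For miR-130a alone the within-run differences in log2 CPM, in the same order of runs, were -0.03, -0.15, -0.50 and -0.85, and for miR-130b alone 0.26, 0.36, 0.36 and -0.10. Between the sexes the ratio averaged 3.31 ± 0.928 in castrated males and 4.36 ± 0.851 in females (SD, n = 9 each), and the lowest ratios belonged to castrated males with high backfat and the highest to females with low backfat.

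**Figure D3:**
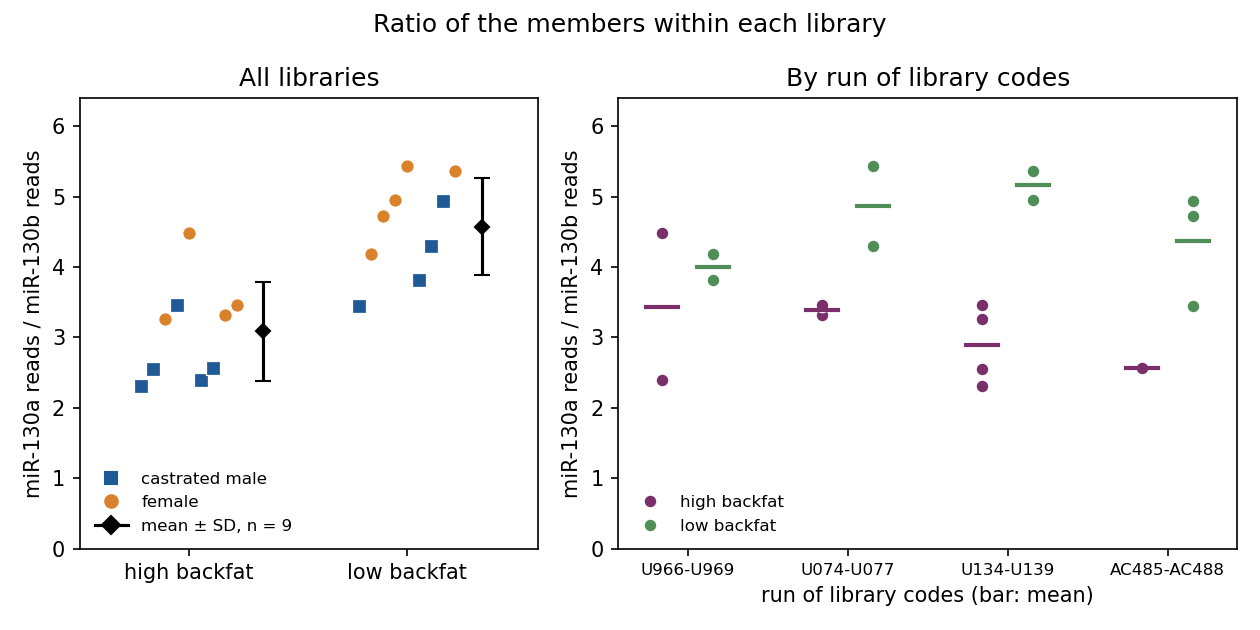
Reads of miR-130a divided by reads of miR-130b in each library, by backfat class with castrated males as squares and females as circles (left, mean ± SD of 9 libraries) and by run of library codes (right, points are libraries and bars are means). High libraries ran from 2.30 to 4.48 and low libraries from 3.44 to 5.43, and the high mean was the lower in each of the 4 runs.

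Most reads of both members began at the annotated first base and differed in where they ended. The forms that held at least 1% of a member's reads in its mean share are shown to make that difference visible, with the bases from position 20 onward in capitals. For miR-130a they were, from the most to the least abundant, as follows.
miR-130a, 20 bases: cagtgcaatgttaaaagggC
miR-130a, 21 bases: cagtgcaatgttaaaagggCA
miR-130a, 23 bases, ending in TT: cagtgcaatgttaaaagggCATT
miR-130a, annotated: cagtgcaatgttaaaagggCAT
miR-130a, 23 bases, ending in TA: cagtgcaatgttaaaagggCATA
miR-130a, last base C: cagtgcaatgttaaaagggCAC
miR-130a, last base A: cagtgcaatgttaaaagggCAA
For miR-130b they were the following.
miR-130b, 23 bases, ending in TT: cagtgcaatgatgaaagggCATT
miR-130b, annotated: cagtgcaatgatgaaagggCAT
miR-130b, 21 bases: cagtgcaatgatgaaagggCA
miR-130b, 23 bases, ending in TA: cagtgcaatgatgaaagggCATA
miR-130b, 20 bases: cagtgcaatgatgaaagggC
miR-130b, last base A: cagtgcaatgatgaaagggCAA

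The form of miR-130a cut short at base 20 held 31.0% ± 3.16 of its reads, the 21-base form 23.95% ± 2.10, the form with an extra T 19.9% ± 2.79, and the annotated form 9.59% ± 0.781 (SD, n = 18). The annotated sequence was therefore only the fourth most abundant form of miR-130a. For miR-130b the form with an extra T led with 27.4% ± 2.14, followed by the annotated form with 23.2% ± 2.41, the 21-base form with 22.98%, the form with an extra A with 12.5% ± 2.29 and the 20-base form with 7.14%.

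Forms of 20 bases made up 32.7% of miR-130a and 7.37% of miR-130b reads, and miR-130a had the larger share in 18 of 18 libraries. Forms of 23 bases made up 26.5% of miR-130a and 41.2% of miR-130b reads, and miR-130a had the smaller share in 18 of 18. Forms of 22 bases made up 14.8% and 26.7% of miR-130a and miR-130b reads, again with the smaller share for miR-130a in all 18. For each of these 3 lengths the two-sided paired permutation test over libraries gave p = 2e-05, the smallest these permutations can give (adjusted p = 2.33e-05 over 14 measures). Forms of 21 bases did not separate the members, with 25.7% of miR-130a and 24.7% of miR-130b reads (paired permutation p = 0.128).

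The extra A after the annotated end was more frequent in miR-130b. It was seen in 4.16% ± 0.475 of miR-130a and 12.5% ± 2.29 of miR-130b reads (SD, n = 18), with the smaller share for miR-130a in 18 of 18 libraries (paired permutation p = 2e-05, adjusted p = 2.33e-05 over 14 measures). The extra T has a separate reading in each member. The deposited table classes it as a length variant in miR-130a and as a mismatch in miR-130b, so by the table's classes a T past the end follows the hairpin in miR-130a and departs from it in miR-130b. Accordingly, forms classed as longer at the end made up 20.03% ± 2.79 of miR-130a reads and 0 of miR-130b reads, and forms with 1 mismatch 15.0% ± 2.42 and 45.3% ± 3.43. The last base C in place of T, T22C, held 3.07% ± 0.826 of miR-130a reads and was listed at 0 for miR-130b in every library.

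**Figure D4:**
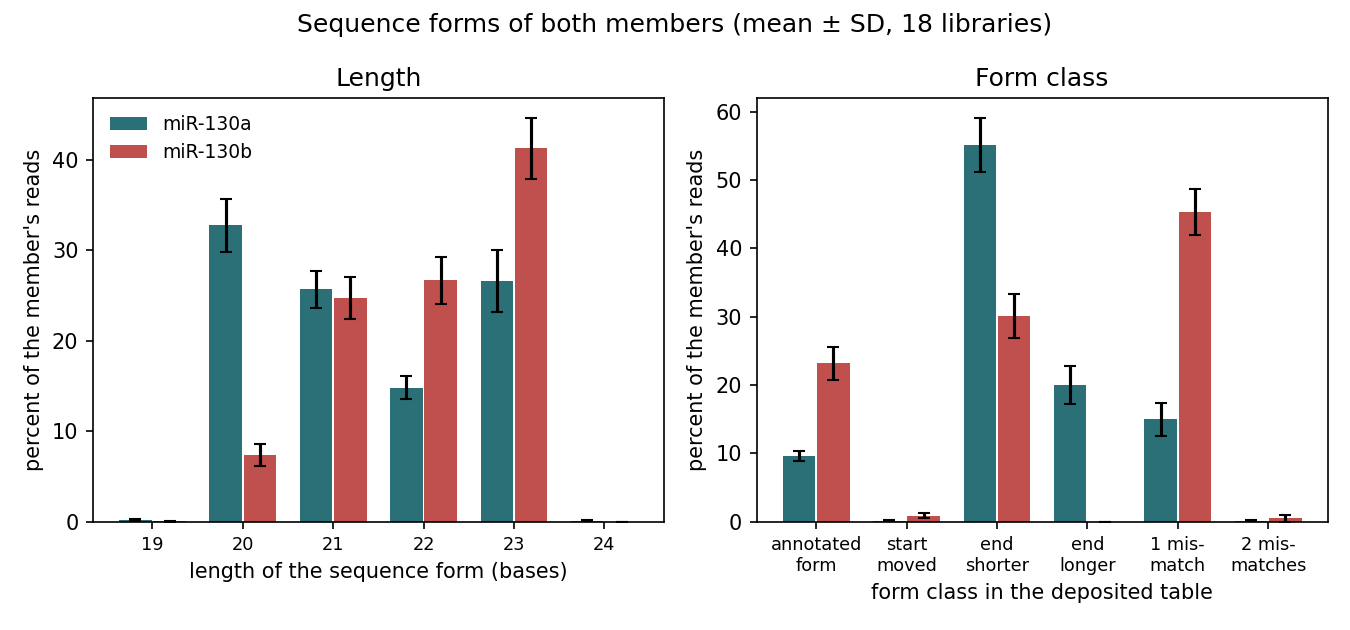
Mean share of the reads of miR-130a and miR-130b by length of the form (left) and by form class of the deposited table (right), with the SD over 18 libraries. Forms of 20 bases held 32.7% of miR-130a reads and 7.37% of miR-130b reads, while forms with 1 mismatch held 15.0% and 45.3%.

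A changed start shifts the seed and was rare. Forms of miR-130a that began at another base and had no mismatch held 0.104% ± 0.0807 of its reads, and those of miR-130b 0.889% ± 0.327 (SD, n = 18), with the smaller share for miR-130a in 18 of 18 libraries (paired permutation p = 2e-05, adjusted p = 2.33e-05 over 14 measures). The late start of miR-130b with an extra T is classed as a mismatch and left out (mean share 0.171%, 92 reads in 7 libraries). In miR-130a the same form is classed as a length variant and counted, so the miR-130b share is understated. The form that starts 1 base late is shown with its own second to eighth bases in capitals.
miR-130a, late start: aGTGCAATgttaaaagggcatt
miR-130b, late start: aGTGCAATgatgaaagggcat
With the minimum of 10 reads per sequence and library, the share of such rare forms also depends on how many reads a member has.

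The end pattern of miR-130a was compared between the backfat classes. Forms longer at the end held 18.8% ± 2.41 of miR-130a reads in high and 21.3% ± 2.69 in low backfat, and forms shorter at the end 56.4% ± 3.50 in high and 53.9% ± 4.10 in low backfat (SD, n = 9 each). Neither difference passed the exact two-sided permutation test (longer, p = 0.0549, adjusted p = 0.329 over 6 shares, shorter, p = 0.171, adjusted p = 0.501), nor did the other 4 shares. None of the 5 shares of miR-130b passed between the classes, with the lowest adjusted p at 0.909.

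Between the sexes, 3 of 5 shares of miR-130b passed with all 18 libraries, in a test without a covariate. Forms shorter at the end rose to 31.8% ± 2.55 of miR-130b reads in castrated males, against 28.4% ± 3.07 in females. Forms with 1 mismatch fell to 43.5% ± 2.35 in castrated males, against 47.1% ± 3.49 in females, and forms with 2 mismatches fell to 0.168% ± 0.260 in castrated males, against 0.741% ± 0.505 in females (SD, n = 9 each, exact permutation, adjusted p = 0.0358 for each). The form with an extra A ran from 8.81% to 12.9% in castrated males and from 10.6% to 15.7% in females (means 10.8% and 14.3%). In the same order, the form with an extra T averaged 27.3% and 27.6%, and that with last base A 2.19% and 2.95%. Seed substitutions went the other way, with 2.21% and 0.917%. These values of single forms were looked at after the test and are a description. Shares of a miRNA add up to 100%, so the 3 shares that passed are not independent. miR-130b had 1210 to 4785 reads (median 2516) in castrated males and 1886 to 3611 (median 2705) in females, and the part of depth in the rare 2-mismatch share was not tested. Sex was also unevenly spread over the runs of library codes. Without the libraries of codes AC485-AC488, 6 castrated males and 8 females remained. The differences were then 3.10, -3.86 and -0.58 percentage points, with adjusted p of 0.107, 0.0749 and 0.0749 (exact permutation, 14 libraries). None of the 3 passed without those libraries. With 1 library left out at a time, the 3 shares passed in 6, 6 and 11 of 18 cases, in the same order. The part of the runs of codes in these differences was not tested. For miR-130a none of the 6 shares passed between the sexes, with the lowest adjusted p at 0.105.

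Single sequence forms were tested on the whole table of 7330 entries with enough counts. Of these, 21 were forms of miR-130a and 8 of miR-130b. No form of either member passed between the classes in edgeR, where 0 of 7330 entries (0%) passed and 643 (8.77%) had an unadjusted p under 0.05, among them 2 of miR-130a and 1 of miR-130b. DESeq2 passed 258 of 6868 entries (3.76%), 1 of each member, and gave some forms of miR-130a no adjusted p. The miR-130a form was the mismatched end cagtgcaatgttaaaagggCACT (log2 fold change -1.31 ± 0.41, SE, DESeq2 adjusted p = 0.0397, edgeR adjusted p = 0.448). It rested on 457 reads in 16 of 18 libraries. The miR-130b form was the one with an extra A shown above (0.44 ± 0.12, DESeq2 adjusted p = 0.00929, edgeR adjusted p = 0.33). The median log2 fold change was -0.40 over the 21 forms of miR-130a, 0.26 over the 8 of miR-130b and -0.01 over all 7330 entries. In direction, 20 of the 21 forms of miR-130a were lower and 8 of 8 forms of miR-130b higher in high backfat. The forms of a member were read in the same libraries and add up to its summed level. Their directions are therefore not independent of each other or of the summed difference given above. Between castrated males and females no entry passed in edgeR (0 of 7330, 0%, with 366 or 4.99% at an unadjusted p under 0.05). DESeq2 passed 25 of 3784 entries (0.661%) there, none of them of either member. Some forms of both members had no adjusted p in that DESeq2 test and could not pass.

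Some mismatches lie in the seed and were not spread evenly over the libraries. The substitution A2T was listed in 17 of 18 libraries for miR-130a, with up to 5.20% of its reads, and in 10 for miR-130b, all among those 17. The substitution A7C was listed in 10 libraries for miR-130a, with up to 4.09% of its reads, and in 8 for miR-130b, all among those 10. A sequence with fewer than 10 reads in a library is listed at 0, and miR-130b had fewer reads than miR-130a in every library. The part of this floor in the nesting was not tested. An A7C form of each member is shown, with the changed base in capitals.
miR-130a, A7C: cagtgcCatgttaaaagggc
miR-130b, A7C: cagtgcCatgatgaaagggca
For A2T and A7C, the libraries that carried the change in miR-130a were those where it was most frequent in unrelated miRNAs. The 10 libraries with A7C in miR-130a were the 10 with the highest pooled share of A7C over 57 other miRNAs that have A at that position, where it ran from 0.000887% to 3.24%. For A2T the 17 libraries of miR-130a were the 17 highest over 64 other miRNAs, where the share ran from 0.0927% to 2.68%. With 17 of 18 libraries listed, this says only that the unlisted library, high replicate 8, had the lowest pooled share. The match was not complete for G3T, listed in 11 libraries for miR-130a with up to 0.658% of its reads and in 1 for miR-130b, since 8 of those 11 were among the 11 highest over 58 other miRNAs. A7G was listed in 2 libraries for miR-130a, the 2 highest over 57 others, and in none for miR-130b. Of the 10 libraries with A7C in miR-130a, 6 were of high and 4 of low backfat. The share of A7C in miR-130a differed by run of library codes, from 3.58% to 4.09% in AC485-AC488. It was 0 to 3.43% in U966-U969, 0 to 3.09% in U074-U077 and 0 to 0.107% in U134-U139. Seed substitutions of any kind made up 3.58% ± 2.56 of miR-130a reads in high and 3.90% ± 2.66 in low backfat (SD, n = 9 each).

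**Figure D5:**
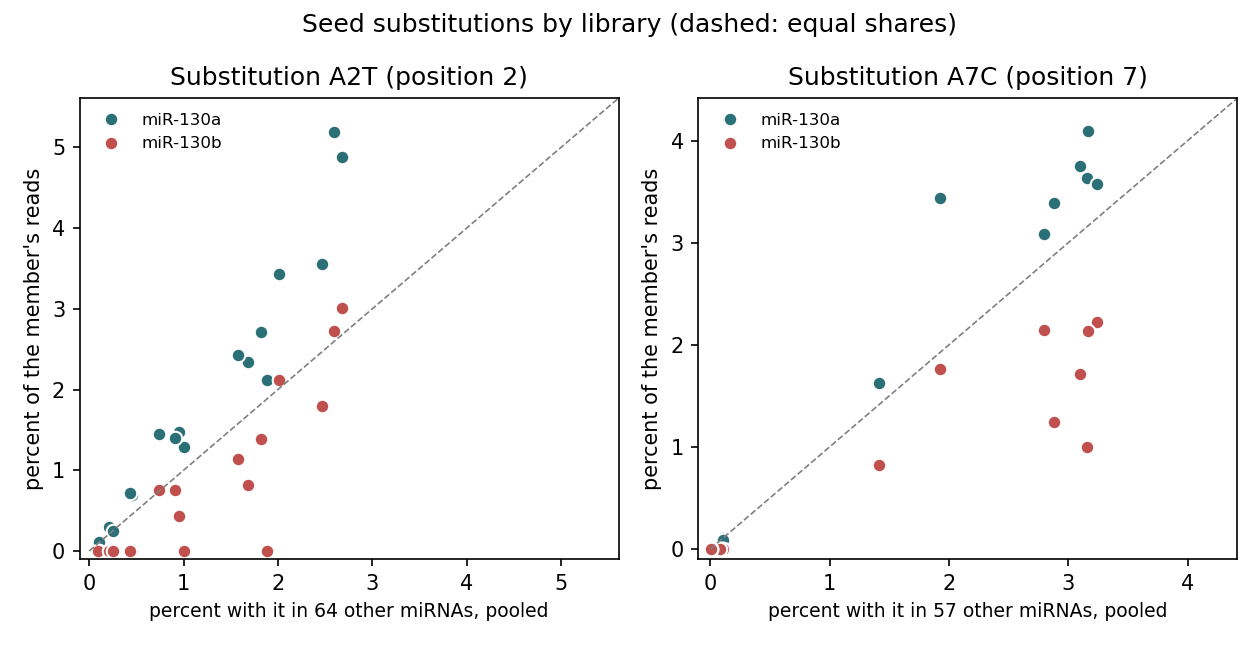
Percent of the reads of miR-130a and miR-130b with the seed substitutions A2T (left) and A7C (right) in each of the 18 libraries, against the pooled percent with the same substitution in other miRNAs of that library. For A7C, 10 libraries carry it in miR-130a and these are the 10 with the highest share in 57 other miRNAs.

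Across the 18 libraries the members did not follow each other. The Spearman correlation of log2 CPM between miR-130a and miR-130b was -0.16, and miR-130b ranked 108th of 174 miRNAs by likeness to miR-130a. All of these values come from the same libraries and share their scaling, and they are a description without a test. The miRNAs most like miR-130a were miR-195 (0.89), miR-181c (0.84), miR-152 (0.77), miR-199a-3p (0.75) and let-7c (0.74). Of these, miR-181c, miR-199a-3p and let-7c fell in high backfat, with log2 fold changes of -0.39 ± 0.11, -0.50 ± 0.13 and -0.28 ± 0.07 (SE, edgeR adjusted p = 0.0486 each), and miR-195 (-0.55 ± 0.17, adjusted p = 0.0705) and miR-152 (-0.36 ± 0.16, adjusted p = 0.167) did not pass. No miRNA passed in edgeR with age as a covariate or without the libraries of codes AC485-AC488 (0 of 221 with 42 at an unadjusted p under 0.05, and 0 of 222 with 31). With sex as the covariate and all 18 libraries, no lower miRNA passed in edgeR under DESeq2 size factors, without the count filter, or without scaling beyond library totals. The calls of miR-181c, miR-199a-3p and let-7c are thus given for the main edgeR fit, with TMM scaling and the count filter. The least like were miR-128 (-0.73), miR-365-5p (-0.70) and miR-425-5p (-0.69).

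The miRNAs most like miR-130b were miR-15b (0.66), miR-451 (0.63), miR-142-5p (0.61), miR-146a-5p (0.61) and miR-221-3p (0.60). miR-451 is a red cell miRNA and miR-142 a white cell miRNA, while miR-144, miR-486 and miR-150 of the blood cell lists were not among these 5. The least like miR-130b were miR-143-5p (-0.75), miR-145-3p (-0.68) and miR-145-5p (-0.57), from the miR-143/145 cluster that is abundant in smooth muscle and other mesenchymal cells. The part of blood cell content in the level of miR-130b was not tested.

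Other miRNAs known to repress PPARG were read beside the family. miR-27a and miR-27b, which lie in separate clusters and restrain fat cell differentiation, were far more abundant than either member. miR-27b-3p stood at 45917 ± 8495 CPM in high and 49661 ± 5268 CPM in low backfat, and miR-27a at 3454 ± 544 CPM in high and 3963 ± 343 CPM in low backfat (SD, n = 9 each). Neither passed, with log2 fold changes of -0.12 ± 0.12 (edgeR adjusted p = 0.554) and -0.21 ± 0.10 (adjusted p = 0.187), and the minor arm miR-27b-5p had 0.22 ± 0.20 (adjusted p = 0.539). Of the 5 tested arms of PPARG-repressing miRNAs, 2 were higher (miR-130b and the minor arm miR-27b-5p) and 3 lower in high backfat, and 0 passed. The median log2 fold change was -0.12, against -0.03 over all 221 miRNAs.

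Among miRNAs known to restrain fat cell differentiation, the family included, 7 of 14 tested arms were higher and 7 lower in high backfat. In that list miR-221-5p (log2 fold change 0.99 ± 0.27, SE) and miR-222 (0.89 ± 0.22) rose, with an edgeR adjusted p of 0.0486 each, and none fell. These were 2 of 14 tested arms, against 8 of 221 (3.62%) over all miRNAs. The list was chosen with earlier results of these data known, and miR-221 and miR-222 belong to the same cluster. The counts are therefore a description, and no enrichment was tested. Neither passed with age as a covariate, without codes AC485-AC488 or with no scaling beyond library totals. With DESeq2 size factors or with no filter, 1 miRNA passed in all, so miR-221-5p and miR-222 did not both pass there. The other arm of miR-221, miR-221-3p, averaged 377 CPM and did not pass (0.27 ± 0.18, SE, edgeR adjusted p = 0.363). The median of the 14 arms was 0.00, against -0.03 over all 221. Among miRNAs known to promote fat cell differentiation, such as miR-143, miR-103 and miR-148a, 10 of 19 tested arms were higher and 9 lower, 0 passed, and the median was 0.02. Between castrated males and females 0 arms of these 3 lists passed.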

How the data were processed

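Total RNA from backfat was made into small RNA libraries with the TruSeq Small RNA kit and read on an Illumina GAII in single-end reads of 100 bases (2 samples to a lane), as the labels' protocols state. The authors deposited raw counts, whole numbers of reads per sequence form, and a normalised signal, which equals the deposited count divided by 1 size factor per library (0.464 to 1.93). The build Sscrofa10.2 and the tools DESeq2 1.4.5, Bowtie 0.12.7 and HTSeq are listed, with no role, per the submitters' processing notes. From the values, a sequence listed under several entries carries its reads divided by the number of listings, and counts under 10 reads per library are listed as 0. Such values cannot tell a sequencing error, an edited base and an added base apart. The deposited tables hold 2 further columns that match no sample and were not used.

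Reads were summed per mature miRNA, with each sequence once per miRNA at its highest listed count, and scaled by TMM over totals of distinct sequences. Tests used edgeR 4.0.16 (quasi-likelihood F test, filterByExpr with a minimum count of 10, Benjamini-Hochberg, threshold 0.05) in R 4.3.3, with DESeq2 1.42.0 and limma 3.58.1 as alternatives, and Python 3.11.15 with SciPy 1.17.1, NumPy 2.4.6, Matplotlib 3.10.9 and pandas 2.3.3. Single forms were fitted over totals of all entries, a choice made after totals over distinct sequences had been tried and had passed 15 of 7330 entries. CPM is counts per 1000000 after TMM, with a prior count of 2 where CPM was put on the log2 scale. Form shares were compared by exact two-sided permutation of 9 against 9, whose smallest p is 4.11e-05, and members by paired permutation of 100000 draws. Each library is an animal, so p-values measure the spread between animals.

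The members, lists and named miRNAs were chosen with earlier results of these data known. Named were all members, their forms of at least 1% and forms that passed, the 5 most and 3 least like miRNAs, the neighbours of miR-130a in level, and the members of 3 lists with known roles in fat cells that passed or repress PPARG. The likeness of miR-130b and the seed substitutions were added after values were seen.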

Additional observations from a re-analysis of the deposited data

Results flagged for a closer look

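The miR-130a level of 764 CPM in low replicate 9, a castrated male of codes AC485-AC488, stood apart from the other 8 low libraries, which ran from 398 to 580 CPM. The same value of 764 CPM stood apart among the 9 castrated males, where the others ran from 331 to 491 CPM. Of 56 groups of values examined this way 2 were flagged, and chance flags about 1 in 20. The library had 11785344 counts over distinct sequences and 9056 reads of miR-130a.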

How the results depend on the processing

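The lower miR-130a level in high backfat kept its direction in 14 alternative settings and 18 runs without a library, with log2 fold changes of -0.43 to -0.22 and -0.45 to -0.29, and passed in 1 of the 14, DESeq2's Wald test (-0.39, adjusted p = 0.0407, range of adjusted p 0.0407 to 0.458 over the 14). miR-130b stayed higher in high backfat in the same settings (0.12 to 0.30 over the 14 and 0.09 to 0.19 without a library) and never passed. The scaling shifts the median of all miRNAs by over 0.1 within females, to 0.22 with no scaling beyond library totals, against 0.0032 with TMM, and that of the difference between sexes to -0.29, against -0.02. The number of miRNAs that passed between classes, 8, depended on the setting: it was 22 in DESeq2, 3 without mismatch forms, 1 with DESeq2 size factors or with no filter, and 0 with no scaling beyond totals, with either limma fit (on the normalised signal plus 1 or plus 10), with age as a covariate and without codes AC485-AC488, and 0 to 13 without a library (0 on leaving out any of 6 libraries, high replicates 1, 3 and 9 and low replicates 5, 6 and 9). At an unadjusted p under 0.05 there were 48 miRNAs with no scaling, 59 and 60 in limma, 42 with age and 31 without those codes, against 54. Of forms, DESeq2 passed 1 of each member. Totals over distinct sequences in place of all entries, added after seeing the data, moved the passing entries to 15 of 7330, against 0, with 0 of either member.

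Small differences changed sign without passing. The class effect in castrated males minus females was 0.18 for miR-130a without codes AC485-AC488, and -0.27 to 0.0778 without a library. For miR-130b it was -0.22 with no scaling (above the median of all miRNAs there), -0.0326 with a mean of at least 10 CPM, -0.18 in both limma fits, and -0.0880 to 0.15 without a library. miR-130a in castrated males against females ran from -0.17 to 0.00615 without a library. The cause of these changes was not tested.

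Share differences in percentage points, without codes AC485-AC488, changed sign for miR-130a with 1 mismatch between classes (0.562) and end shorter between sexes (1.02), and for miR-130b exact match between classes (0.368). Without those codes the differences between sexes in miR-130b no longer passed for end shorter (3.10), 1 mismatch (-3.86) and 2 mismatches (-0.582). Without a library they ran from 2.75 to 3.99, from -4.19 to -2.85 and from -0.666 to -0.496, and passed in 6, 6 and 11 of 18 runs. Without a library, miR-130a shares ran from -0.00882 to 0.0241 for start moved between classes, and between sexes from -0.101 to -0.0702 for start moved (adjusted p = 0.0434 without low replicate 9, exact permutation), from -1.19 to 0.809 for end shorter and from -1.17 to 0.154 for end longer. miR-130b shares between classes ran from -1.21 to 0.108 for exact match, from -0.0475 to 0.0988 for start moved and from -1.18 to 0.251 for 1 mismatch. The log2 ratio of the members, high minus low, was -0.65 to -0.53 without a library and -0.60 to -0.49 in 3 other settings, and castrated males minus females -0.50 to -0.36 and -0.55 to -0.47. These settings of the ratio were chosen after seeing the data.

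No paired analysis was possible because the labels number animals and not replicates, so no library is paired with another across groups. Counts below 10 reads per library are listed as 0, which limits what can be said of rare forms.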

Other observations

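Age at slaughter was set beside each member's level in log2 CPM, in 6 relations (all 18 pigs and each class, for both members). Over all pigs miR-130a had a Pearson r of 0.01 (permutation p = 0.962) and a Spearman rho of 0.18 (p = 0.464), and miR-130b an r of -0.42 (p = 0.0828) and a rho of -0.41 (p = 0.0898). In the low class miR-130b had an r of -0.72 (exact permutation p = 0.0493, adjusted p = 0.248) and a rho of -0.71 (p = 0.0402, adjusted p = 0.241), and an r of -0.74 without the 2 ages farthest from the median. In the high class its r was 0.31 (exact permutation p = 0.422). None of the 6 passed after adjustment.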
